A study of Rattus norvegicus with 24 samples.

Results

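The Eph receptors are a family of receptor tyrosine kinases, and the ephrins are their ligands on neighbouring cells. Of this family, 8 genes were followed in colon tumours and normal colon of Pirc rats: the receptors Ephb2, Ephb3, Ephb4, Ephb6 and Epha2 and the ligands Efnb1, Efnb2 and Efna1. They were chosen by name. Every gene probe whose current or older name, accession or gene ID led to 1 of these genes was taken, which gave 12 of the 41012 gene probes and 8 of the 16160 named genes on the array. Epha2 and Efna1 belong to the A class of the family and the other 6 genes to the B class.

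The study measured 10 male (ACIxF344)F1-Pirc rats, all of genotype Apc-Pirc/+, that is with 1 mutant copy of the tumour suppressor Apc, at 97 days of age. Of these, 5 had drunk 4% DSS, dextran sodium sulfate of molecular weight 500000, which irritates the lining of the colon, in 2 courses on days 40 to 47 and 54 to 61, and the other 5 were left untreated. A tumour and normal tissue of the distal colon were taken from each rat, which gave 4 groups of 5 rats: tumours of DSS rats on 6 arrays, tumours of untreated rats on 5, normal colon of DSS rats on 6 and normal colon of untreated rats on 7. Each Cy3-labelled sample was hybridized against a pool of Apc wild-type colon RNA that carried Cy5, so every value here is log2 of the sample over that pool. Normal colon here therefore also carries the Apc mutation, every group shares it, and the labels do not say whether a tumour sample holds 1 or several tumours.

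EphA receptors mostly bind ephrin-A ligands, which are anchored in the membrane by a lipid, and EphB receptors mostly bind ephrin-B ligands, which cross the membrane. Contact between 2 cells sends signals into both, and the usual response is that the cells retract from each other. In the mouse intestine, Wnt signalling keeps EphB2 and EphB3 high in the proliferating cells at the crypt base, while ephrin-B1 is high in the differentiated cells further up, and the opposed gradients keep the cells sorted. EphB4 and ephrin-B2 are best known for marking veins and arteries, and EphB6 lacks kinase activity.

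The array reads each gene through probes of 60 bases, and the probes behind the differences described here are shown because they define which stretch of each transcript was measured. They are written 5′ to 3′ as the array's files give them, with no base set apart because the whole probe hybridizes. Ephb4 has 2 probes that do not overlap, and both are given.
Ephb3: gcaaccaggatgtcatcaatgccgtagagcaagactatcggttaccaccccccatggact
Ephb4, brighter probe: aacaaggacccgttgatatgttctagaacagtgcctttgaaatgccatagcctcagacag
Ephb4, other probe: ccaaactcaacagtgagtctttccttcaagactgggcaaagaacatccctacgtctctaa
Epha2: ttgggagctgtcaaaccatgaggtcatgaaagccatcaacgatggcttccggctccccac
Efnb1: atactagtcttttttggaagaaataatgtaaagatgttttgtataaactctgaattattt
Efna1: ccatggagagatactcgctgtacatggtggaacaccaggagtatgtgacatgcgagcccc
The Efnb1 probe is poor in G and C (21.7%), against 45% in both Ephb4 probes, 53.3% in the Ephb3 probe and 55% in the Epha2 and Efna1 probes. Between the 12 probes, the longest run of bases that any 2 shared on either strand was 9. Ephb2 has 3 probes and Ephb6 has 2. Where a gene had several, the brightest stands for it.

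Of the 8 genes, 7 passed the filter on dim probes, which asked for a sample signal well above background on 5 or more of the 24 arrays. Efnb2, the ligand that marks arteries, was well above background on only 3 of the 24 arrays and was not tested. Its values lay between -0.10 and 0.23 in all 20 samples, which on a probe this dim gives no level to compare. No member's probe was saturated in either channel on any array.

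Arrays of 1 sample were averaged, so that the rat is the replicate. The share of probes with a sample signal well above background was 48.4% to 71% on 21 arrays and 87.1% to 95.2% on 3 arrays of raised signal, which held the tumour of rat 9, the normal colon of rat 4 and, as its first array, the normal colon of rat 2. Across features, DSS rats 1 and 5 had normal colons that correlated at 0.97, above the 0.813 to 0.968 between first and second arrays of 1 sample, and results are also given with the pair averaged to 1 sample. The slides fell into 2 sets, with rats 1 to 6 in set 1 and rats 7 to 10 in set 2, and set 2 was also the third scan day, so that set and scan day cannot be told apart there. Each tumour shared a slide with an array of the same rat's normal colon. The epithelial marker list (8 of 9 genes tested, all above background on at least 1 array of every group) had mean log2 values of -0.54 to 0.04 in tumours of DSS rats, -0.68 to 0.48 in tumours of untreated rats, 0.02 to 0.26 in normal colon of DSS rats and 0.21 to 0.58 in normal colon of untreated rats.

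The members did not move as a block. In tumours against normal colon, the receptor Ephb3 rose in DSS rats, the receptor Ephb4 fell in untreated rats, Epha2 rose in untreated rats, and the ligand Efnb1 fell in both, except that its direction in DSS rats turned with median centring in place of loess. In normal colon, Epha2 was higher and Efna1 lower in DSS rats than in untreated rats, with the Efna1 call lost under 14 of 26 alternatives. The change of Ephb4 between tumour and normal colon differed between DSS and untreated rats by the test of that difference. That call was lost under 11 of 27 alternatives. Between tumour and normal colon, the Ephb3 call in DSS rats was lost under 12 of 27 and the Epha2 call in untreated rats under 8. Those of Ephb4 and Efnb1 in untreated rats were lost under 2 each. In DSS rats the Efnb1 call was lost under 10 and turned under 1. The Epha2 call in normal colon was lost under 5 of 26. In all, 2 of 7 members were called at an adjusted p under 0.05 between tumour and normal colon in DSS rats, where 7.59% of the 26653 features tested were called. In untreated rats 3 of 7 were called, against 18.0% of all features, and over all rats 2 of 7, against 20.8%. Between DSS and untreated rats, 2 of 7 were called in normal colon, against 7.24% of all features, and 0 of 7 in tumours, against 0% of all features. For the interaction, the difference between the tumour effects of DSS and untreated rats, 1 of 7 was called, against 2.50% of all features. All these calls came from limma's moderated test with Benjamini-Hochberg adjustment over all features. With median centring in place of loess, 0 of 7 members were called in any comparison. Between tumour and normal colon it called 665 of all features in DSS rats and 918 in untreated rats.

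**Figure D1:**
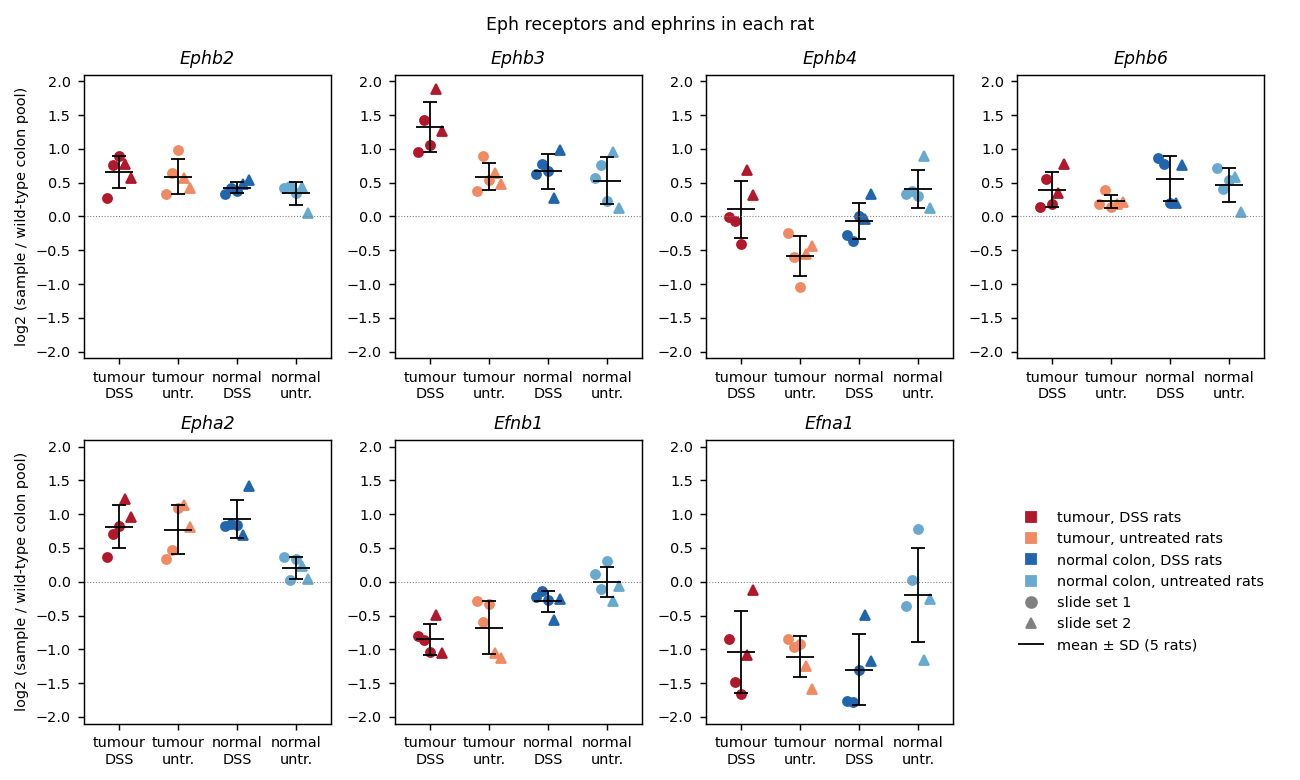
Level of the 7 members above background in each sample, as log2 of the sample over the wild-type colon pool. Each point is 1 rat, circles are slide set 1 and triangles slide set 2, and the bar shows mean ± SD of 5 rats. The mean of Ephb3 is highest in tumours of DSS rats (1.32) and that of Ephb4 lowest in tumours of untreated rats (-0.58). Epha2 is higher in every normal colon of DSS rats than in any normal colon of untreated rats, while the Efna1 groups overlap.

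Ephb3, an EphB receptor of the crypt base, had log2 values of 0.96, 1.43, 1.06, 1.89 and 1.26 in tumours of DSS rats 1, 5, 6, 7 and 9, against 0.63, 0.78, 0.67, 0.27 and 0.98 in their normal colon. In tumours of untreated rats 2, 3, 4, 8 and 10 the values were 0.37, 0.89, 0.54, 0.65 and 0.48, against 0.57, 0.76, 0.23, 0.96 and 0.13 in their normal colon. Tumours of DSS rats were high and the other 3 groups lay in 1 range, with an overlap of tumour and normal colon in DSS rats at 1 value only (0.96 in the tumour of rat 1 and 0.98 in normal colon of rat 9). Ephb3 averaged 1.32 ± 0.37 in tumours and 0.67 ± 0.26 in normal colon of DSS rats (SD, n = 5 each), a rise of 0.66 ± 0.18 (SE), or 1.58-fold, with an adjusted p of 0.0329 in limma's moderated test, and it was higher in the tumour of 5 of 5 rats. In untreated rats, tumour and normal colon averaged 0.59 ± 0.20 and 0.53 ± 0.35 (SD, n = 5 each), and the difference was 0.06 (95% interval -0.33 to 0.44).

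DSS tumours did not overlap with untreated tumours for Ephb3, a separation that 0.480% of all features showed in this direction. The difference between them was 0.74 ± 0.18 (1.67-fold, unadjusted p 0.000765), with an adjusted p of 0.335 in limma's moderated test. No feature passed the adjusted test between the 2 kinds of tumour, while 1673 of 26653 (6.28%) had an unadjusted p under 0.05. The interaction of Ephb3, 0.60 ± 0.26 (adjusted p 0.271), did not pass. Within slide sets 1 and 2 the rise in tumours of DSS rats was 0.46 and 0.95, with adjusted p-values of 0.144 and 0.349 in limma's moderated test. Rat 7 had the largest difference (1.62), and without it the rise was 0.42 with an adjusted p of 0.18, while leaving out rat 1, 5 or 6 kept it at 0.66 to 0.74 with adjusted p-values of 0.0515 to 0.109. It was 0.67 without the arrays of raised signal (adjusted p 0.0709), 0.67 with the normal colon of rats 1 and 5 averaged (0.0638) and 0.64 with slide as a block (0.0578). With median centring it was 1.21 (adjusted p 0.109), with Agilent's processed signals 0.74 (0.0903), and with a normexp offset of 10 it was 0.62 (0.0932).

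Ephb4, an EphB receptor best known from veins, had log2 values of -0.01, -0.07, -0.41, 0.69 and 0.32 in tumours of DSS rats 1, 5, 6, 7 and 9, against -0.27, -0.36, 0.00, -0.04 and 0.33 in their normal colon. In tumours of untreated rats 2, 3, 4, 8 and 10 the values were -0.25, -0.60, -1.05, -0.55 and -0.44, against 0.33, 0.38, 0.31, 0.89 and 0.13 in their normal colon. All tumours of untreated rats lay below every normal colon of untreated rats, a separation that 6.16% of all features showed in this direction. Both tissues of DSS rats spanned 0. In DSS rats Ephb4 averaged 0.10 ± 0.42 in tumours and -0.07 ± 0.27 in normal colon (SD, n = 5 each), and tumour minus normal colon was 0.17 (95% interval -0.24 to 0.58). In untreated rats it averaged -0.58 ± 0.30 in tumours and 0.41 ± 0.29 in normal colon (SD, n = 5 each), so that it fell by 0.99 on the log2 scale (SE 0.19, 1.98-fold lower, adjusted p 0.00173 in limma's moderated test), in 5 of 5 rats. The interaction was 1.16 ± 0.28 (adjusted p 0.0305 in limma's moderated test).

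The second Ephb4 probe averaged -0.64 in tumours and 0.23 in normal colon of untreated rats, a difference of -0.87 ± 0.17 (adjusted p 0.00169 in limma's moderated test), and its interaction was 1.07 ± 0.24 (adjusted p 0.0232). Across both tissues the 4 group means of Ephb4 ran from normal colon of untreated rats at the top, through tumours and normal colon of DSS rats, to tumours of untreated rats. The middle neighbours did not differ beyond their spread, and neither step between DSS and untreated rats passed the test. DSS minus untreated was -0.48 ± 0.19 in normal colon (adjusted p 0.161) and 0.68 ± 0.19 in tumours (unadjusted p 0.00256, adjusted p 0.428). The mean over all rats, -0.41 ± 0.14 (adjusted p 0.0419 in limma's moderated test), joins effects of 0.17 in DSS rats and -0.99 in untreated rats. Their difference, the interaction, passed in the main fit and missed the threshold under 11 of 27 alternatives. The mean over all rats missed it under 14 of 27, at -0.16 with median centring (adjusted p 0.809). The second probe gave -0.33 over all rats (adjusted p 0.0577).

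Within slide sets 1 and 2 Ephb4 differed by -0.98 and -1.0 between tumour and normal colon of untreated rats (adjusted p 0.00748 and 0.0819), and by -0.99 without the arrays of raised signal (0.00569). The interaction was 1.02 and 1.36 in the 2 sets (adjusted p 0.0884 and 0.236), 1.11 without the arrays of raised signal (0.1) and 1.10 with the normal colon of rats 1 and 5 averaged (0.06). With median centring the interaction was 2.01 (adjusted p 0.131) and the difference in untreated rats -1.17 (0.129). The interaction missed the threshold without rat 1, 3, 4, 5, 7 or 8, at 1.02 to 1.16 with adjusted p-values of 0.0547 to 0.0905. In whole tissue, fewer cells of a type and less RNA per cell cannot be told apart, here and for every gene below. Of the endothelial marker list (11 of 11 genes tested), Tek was above background on no array of tumours of untreated rats. The list's mean log2 values were -0.24 to 0.05 in those tumours and -0.44 to -0.08 in normal colon of untreated rats. In that comparison 2 of its 11 genes rose and 0 fell, beside 8.57% higher and 9.42% lower of all features. Of the epithelial list, 2 of 8 genes fell and 0 rose in the same comparison. The part of either list in the Ephb4 result was not tested.

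**Figure D2:**
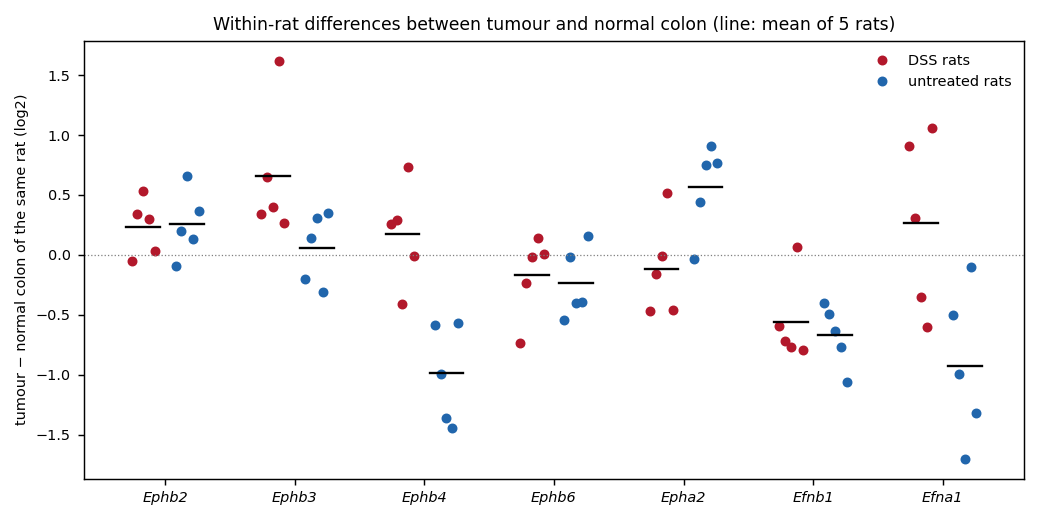
Tumour minus normal colon of the same rat for each member, in log2 units, with DSS rats in red left of untreated rats in blue and a line at the mean of 5 rats. Ephb4 lies between -1.44 and -0.57 in untreated rats and between -0.41 and 0.73 in DSS rats, and Ephb3 is above 0 in all 5 DSS rats.

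Ephb2, the receptor that with Ephb3 marks the crypt base, averaged a little more in tumours in both arms, without passing the test in any of the 6 comparisons. Its values were 0.28, 0.76, 0.90, 0.78 and 0.57 in tumours of DSS rats 1, 5, 6, 7 and 9, against 0.33, 0.42, 0.37, 0.48 and 0.54 in their normal colon. In untreated rats 2, 3, 4, 8 and 10 they were 0.33, 0.64, 0.99, 0.57 and 0.42 in tumours, against 0.42, 0.45, 0.34, 0.44 and 0.05 in normal colon. The ranges overlapped in both arms, and the tumour was above its own normal colon in 4 of 5 DSS rats and 4 of 5 untreated rats. Over all rats the difference was 0.24 ± 0.09 (1.18-fold, adjusted p 0.0605 in limma's moderated test). With rat as a fixed block, which compares the tissues within each rat, the adjusted p was 0.0434, and with rat as a random block 0.0238. The other 2 Ephb2 probes gave 0.22 ± 0.12 and 0.15 ± 0.06 over all rats, with adjusted p-values of 0.217 and 0.114.

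Ephb6, the EphB receptor without kinase activity, passed the test in no comparison. Tumours held 0.14 to 0.77 in DSS rats and 0.14 to 0.39 in untreated rats, and normal colon 0.20 to 0.86 in DSS rats and 0.06 to 0.72 in untreated rats. Over all rats the difference between tumour and normal colon was -0.20 (95% interval -0.43 to 0.03). The second Ephb6 probe was dim, well above background on 7 of 24 arrays, and stayed within -0.13 to 0.08.

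Epha2, an EphA receptor of epithelial cells, had its lowest mean in the normal colon of untreated rats. Normal colon of DSS rats 1, 5, 6, 7 and 9 read 0.83, 0.86, 0.84, 0.69 and 1.42, against 0.37, 0.03, 0.33, 0.24 and 0.04 in untreated rats 2, 3, 4, 8 and 10. Every DSS value in normal colon was above every untreated value, a separation that 4.54% of all features showed in this direction. The means were 0.93 ± 0.28 in DSS rats and 0.20 ± 0.16 in untreated rats (SD, n = 5 each), a difference of 0.73 ± 0.18 (1.66-fold, adjusted p 0.0169 in limma's moderated test). In DSS rats the tumours, at 0.36, 0.70, 0.83, 1.22 and 0.96, overlapped with the normal colon, and the difference was -0.12 (95% interval -0.48 to 0.25). Tumours of untreated rats read 0.34, 0.47, 1.09, 1.14 and 0.81, above the normal colon of the same rat in 4 of 5 rats, and averaged 0.77 ± 0.36 (SD, n = 5). They were 0.57 ± 0.18 or 1.48-fold higher than the normal colon of untreated rats (adjusted p 0.0307 in limma's moderated test). The interaction of -0.68 ± 0.25 did not pass (adjusted p 0.173).

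Within slide sets 1 and 2 the rise of Epha2 in normal colon of DSS rats was 0.60 and 0.92 (adjusted p 0.0641 and 0.244), and that in tumours of untreated rats 0.39 and 0.84 (0.227 and 0.109). With Agilent's processed signals these differences were 0.85 and 0.61 (adjusted p 0.143 and 0.249), and with median centring 0.63 and 0.50 (0.444 and 0.471), so that both calls were lost. Rat 9 was the highest normal colon, and without it the DSS effect was 0.60 with an adjusted p of 0.0503 in limma's moderated test. The rise in tumours of untreated rats missed the threshold without rat 3, 4, 8 or 10, at 0.48 to 0.60 with adjusted p-values of 0.0559 to 0.14. Epha2 rose in the same samples as a list of squamous epithelium markers. Of the 12 genes of that list, 10 were tested, with Krt6a and Trp63 not found on the array by name. All 10 were called higher in normal colon of DSS rats, beside 3.91% higher of all features. The list's mean there was 2.78 to 4.39, against -0.20 to 1.81 in normal colon of untreated rats. None of the 10 was below background on every array of any group, and the highest untreated value, 1.81 in rat 8, stood beside an Epha2 value of 0.24. In tumours of untreated rats the list's mean was 0.04 to 0.53, with 1 of 10 genes higher, beside 8.57% higher of all features. The Epha2 call in those tumours missed the threshold under 8 of 27 alternatives. The part of the squamous markers in the Epha2 difference of normal colon was not tested.

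**Figure D3:**
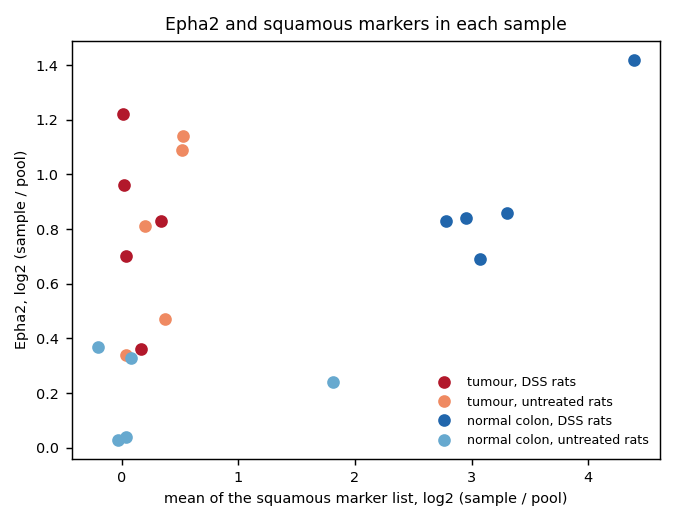
Epha2 against the mean of 10 squamous epithelium markers in each of the 20 samples, both as log2 of the sample over the pool. The 5 normal colons of DSS rats lie at 2.78 to 4.39 on the marker axis. Tumours lie at 0.01 to 0.53 on that axis, with Epha2 values from 0.34 to 1.22.

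Efnb1, the ephrin-B ligand of differentiated crypt cells and a partner of Ephb2 and Ephb3, was lower in tumours in both arms. It read -0.81, -0.86, -1.04, -0.49 and -1.05 in tumours of DSS rats 1, 5, 6, 7 and 9, against -0.22, -0.14, -0.27, -0.56 and -0.26 in their normal colon. Untreated rats 2, 3, 4, 8 and 10 read -0.29, -0.59, -0.33, -1.05 and -1.13 in tumours, against 0.12, -0.11, 0.30, -0.28 and -0.07 in normal colon. Rat 7 was the exception in DSS rats, with its tumour 0.07 above its normal colon, and in untreated rats the groups did not overlap, as for 6.16% of all features in this direction. Efnb1 fell by 0.56 on the log2 scale in tumours of DSS rats (SE 0.16, 1.47-fold lower, adjusted p 0.0409 in limma's moderated test) and by 0.67 in tumours of untreated rats (SE 0.16, 1.59-fold lower, adjusted p 0.00744). Over all rats the fall was -0.61 ± 0.11 (adjusted p 0.000787), the smallest p-value of any member in any comparison, with the tumour lower in 9 of 10 rats. The interaction was 0.11 (95% interval -0.37 to 0.59), and DSS minus untreated was -0.28 in normal colon (-0.62 to 0.06) and -0.17 in tumours (-0.51 to 0.17).

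Within slide sets 1 and 2 the Efnb1 difference was -0.69 and -0.36 in DSS rats (adjusted p 0.00603 and 0.528) and -0.51 and -0.91 in untreated rats (0.0192 and 0.0505). In DSS rats it missed the threshold without rat 1, 3, 5, 6 or 9 (-0.56 to -0.50, adjusted p 0.064 to 0.166), without the arrays of raised signal (-0.51, adjusted p 0.0972) and with the normal colon of rats 1 and 5 averaged (-0.53, adjusted p 0.0978). With median centring in place of loess the value in DSS rats turned to 0.13 (adjusted p 0.865). With Agilent's processed signals, also centred on each array's median, it was -0.60 (adjusted p 0.0693). In the absorptive colonocyte list, 4 of 10 genes fell and 1 rose in tumours of DSS rats, beside 3.86% lower and 3.73% higher of all features, and 4 fell and 2 rose in tumours of untreated rats, beside 9.42% lower and 8.57% higher. The list's mean was -2.89 to -1.99 in tumours and -1.81 to -1.26 in normal colon of DSS rats, and -2.98 to -1.57 in tumours and -1.71 to -0.77 in normal colon of untreated rats. Its part in the Efnb1 result was not tested.

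Efna1, an ephrin-A ligand that binds Epha2, was lower in normal colon of DSS rats than of untreated rats, with a call close to the threshold. It read -1.76, -1.78, -1.31, -0.49 and -1.17 in normal colon of DSS rats 1, 5, 6, 7 and 9, against -0.36, 0.03, 0.78, -1.16 and -0.26 in untreated rats 2, 3, 4, 8 and 10. The groups overlapped through rat 7, the highest DSS value, and rat 8, the lowest untreated value, both in slide set 2. The means were -1.30 ± 0.53 in DSS rats and -0.19 ± 0.70 in untreated rats (SD, n = 5 each), so that Efna1 fell by 1.11 (SE 0.33, 2.16-fold lower, adjusted p 0.0488 in limma's moderated test). Within slide set 1 the difference was -1.77 (adjusted p 0.00324) and within slide set 2 it was -0.12 (0.963). With rat as a random block the adjusted p was 0.0507, and the call was also lost without rat 1, 2, 3, 4, 5, 6, 9 or 10 (-1.15 to -0.87, adjusted p 0.0517 to 0.149), without the arrays of raised signal (-0.82, 0.105) and with the normal colon of rats 1 and 5 averaged (-0.99, 0.114). With median centring it was -1.48 (adjusted p 0.264), and in all 14 of 26 alternatives missed the threshold. The squamous list was also higher in every normal colon of DSS rats. Rat 8, the untreated rat with the highest squamous mean (1.81), had the lowest Efna1 of its group. DSS rat 9, with the highest squamous mean (4.39), had an Efna1 value above its group's mean. Tumours averaged -1.04 in DSS rats and -1.11 in untreated rats for Efna1, with squamous means of at most 0.53. The part of the squamous markers in the result was not tested.

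In tumours, Efna1 read -0.85, -1.48, -1.66, -1.09 and -0.12 in DSS rats and -0.85, -0.96, -0.92, -1.25 and -1.58 in untreated rats. Tumours of DSS rats went both ways, 3 above and 2 below the normal colon of the same rat, with a difference of 0.27 (95% interval -0.43 to 0.96). Tumours of untreated rats were below it in 5 of 5 rats, with differences of -0.10 in rat 8 and -1.70 in rat 4 at the extremes. The difference, -0.92 ± 0.33 (1.89-fold lower), had an adjusted p of 0.0615 in the unblocked fit, and 0.0307 with rat as a fixed block and 0.0222 with rat as a random block. The interaction, 1.19 ± 0.47, did not pass (adjusted p 0.214).

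**Figure D4:**
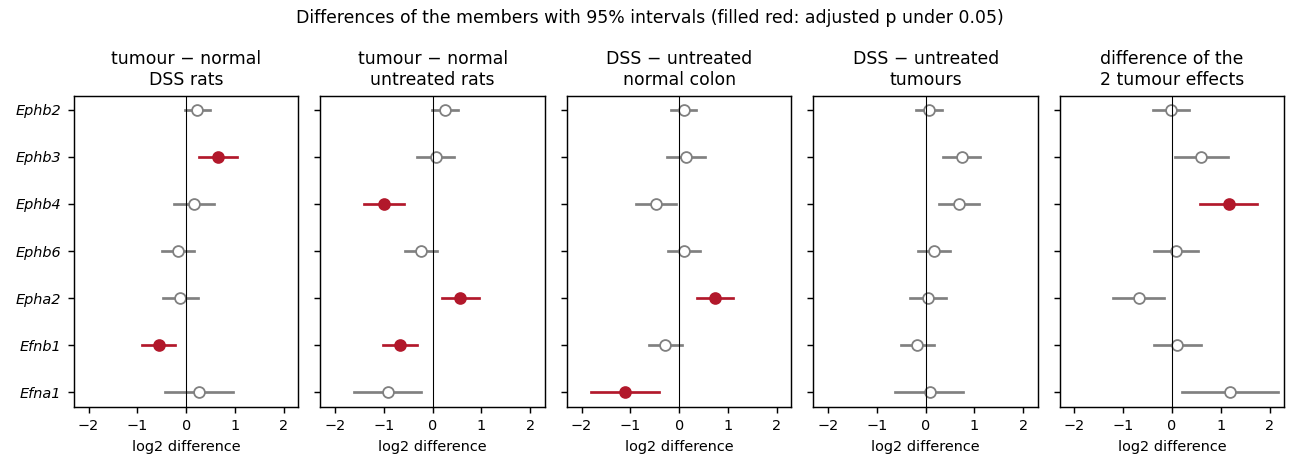
Log2 differences of the 7 members in 5 comparisons with 95% intervals from limma, where filled red points have an adjusted p under 0.05. Efnb1 is called on the left of 0 in both panels of tumour against normal colon (with median centring its sign turns in DSS rats), Ephb4 in untreated rats and in the difference of the 2 tumour effects, and no member in the panel of tumours. The Ephb4 call in the difference of the tumour effects is lost under 11 of 27 alternatives.

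Over the 7 members the median difference between tumour and normal colon was 0.17 in DSS rats and -0.24 in untreated rats, against 0.02 and 0.00 over all features. In normal colon, DSS minus untreated had a median of 0.09 over the members, against -0.01 over all features, and in tumours 0.08, against 0.01. A receptor and its ligand could differ within a comparison. In tumours of DSS rats Ephb3 rose while Efnb1 fell, Efnb1 not under median centring. The Ephb3 call missed the threshold under 12 of 27 alternatives, and the Efnb1 call missed it under 10 and reversed under 1. In normal colon of DSS rats Epha2 rose while Efna1 fell. The Efna1 call missed the threshold under 14 of 26 alternatives and the Epha2 call under 5. All these comparisons share samples with each other: the normal colon of untreated rats enters both the DSS effect in normal colon and the tumour effect in untreated rats.

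Of the 14 other Eph receptors and ephrins listed, 12 were on the array by name and 8 were tested. In tumours against normal colon, 2 rose and 2 fell in DSS rats, where 7.59% of all features were called, and 1 rose in untreated rats, where 18.0% were. Efna4, an ephrin-A ligand, had the largest difference between tumour and normal colon in the family. It read 0.96, 0.92, 0.87, 0.81 and 1.40 in tumours of DSS rats 1, 5, 6, 7 and 9, against -0.30, -0.18, -0.22, -0.32 and 0.07 in their normal colon, a rise of 1.18 ± 0.15 (2.27-fold, adjusted p 5.64e-05 in limma's moderated test). In tumours of untreated rats 2, 3, 4, 8 and 10 it read 0.17, 0.66, 0.24, 1.02 and 0.19, against 0.10, -0.03, -0.15, 0.10 and 0.00, a rise of 0.45 ± 0.15 (1.37-fold, adjusted p 0.0386). This second call missed the threshold under 12 of 27 alternatives, with adjusted p-values up to 0.811. The interaction of Efna4, 0.73 ± 0.21, did not pass (adjusted p 0.0717). In the RefSeq annotation of GRCr8, Efna1, Efna3 and Efna4 follow one another on chromosome 2. Efna3 differed by 0.35 ± 0.41 in DSS rats and 0.12 ± 0.41 in untreated rats and passed no test, so that the 3 neighbours did not share 1 pattern of calls.

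The receptor Epha4 rose by 0.72 ± 0.18 in tumours of DSS rats (1.64-fold, adjusted p 0.0158), at 0.86 to 1.28 in tumours and -0.22 to 0.64 in normal colon. In untreated rats its difference was 0.34 ± 0.18 (adjusted p 0.211). Epha1 and Epha7 were also higher in normal colon of DSS rats, where Epha1 differed by 0.63 ± 0.17 (1.55-fold, adjusted p 0.0279) and Epha7 by 0.56 ± 0.12 (1.47-fold, adjusted p 0.01), both by limma's moderated test. Epha1 read 0.21 to 1.41 in normal colon of DSS rats and -0.08 to 0.32 in that of untreated rats, and Epha7 0.00 to 0.92 and -0.12 to 0.03. For both genes the lowest DSS value, in rat 7, lay within the untreated range. The Epha7 probe was well above background on 5 of 6 arrays of normal colon of DSS rats and on 2 of 7 arrays of normal colon of untreated rats, and on 2 of 6 arrays of tumours of DSS rats, so that its differences rest on dim groups and their size is uncertain. Over the alternatives the Epha7 difference ran from 0.45 to 2.96 in normal colon and from -2.35 to -0.42 between tumour and normal colon of DSS rats, with the largest sizes under Agilent's processed signals. In tumours of DSS rats both were lower than in normal colon, with differences of -0.67 for Epha1 and -0.55 for Epha7 on the log2 scale (adjusted p 0.0175 and 0.00887). The Epha1 call was lost under 8 of 26 alternatives in normal colon and under 4 of 27 in tumours of DSS rats. For Epha7 these were 3 of 25 and 4 of 26. The squamous list was also higher in normal colon of DSS rats. There rat 9 was highest for the list (4.39), for Epha1 (1.41) and for Epha7 (0.92). Rat 7, lowest for both genes, had a list mean of 3.07. Untreated rat 8, with the highest list mean of its group (1.81), had the lowest Epha1 (-0.08) and Epha7 (-0.12) there. The part of the squamous list in these differences was not tested. The other tested genes, Efna3, Efna5, Efnb3 and Epha10, passed in no comparison.

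**Figure D5:**
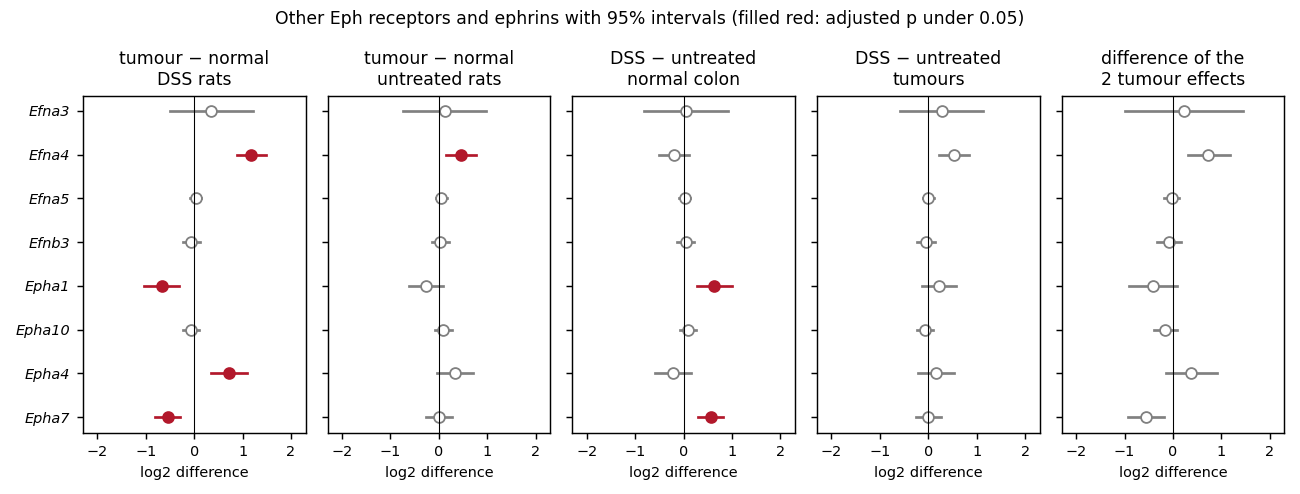
Log2 differences of the 8 other tested Eph receptors and ephrins with 95% intervals from limma, where filled red points have an adjusted p under 0.05. Efna4 is called higher in tumours in both arms (in untreated rats the call is lost under 12 of 27 alternatives), and Epha1 and Epha7 are called higher in normal colon of DSS rats and lower in DSS tumours than in that normal colon. The Epha1 call is lost under 8 of 26 alternatives in normal colon and under 4 of 27 in DSS tumours.

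Of 44 listed adaptors, kinases and regulators of Eph and ephrin signalling, 39 were tested. Between tumour and normal colon, 1 rose and 1 fell in DSS rats, and 4 rose and 2 fell in untreated rats, shares of the list that stand beside 3.73% higher and 3.86% lower of all features in DSS rats and 8.57% higher and 9.42% lower in untreated rats. Acp1, a low molecular weight phosphatase that acts on Eph receptors, rose by 1.01 ± 0.11 in tumours of untreated rats (2.01-fold, adjusted p 1.13e-05), and its interaction was -0.68 ± 0.16 (adjusted p 0.0265), which turned to 0.16 under median centring. The adaptor Grb2 rose by 0.44 ± 0.10 there (adjusted p 0.00341), and Rgs3, which links ephrin-B ligands to G proteins, fell by 1.13 (SE 0.25, adjusted p 0.0037). In DSS rats the PDZ protein Pick1, a binding partner of ephrin-B ligands, rose by 0.43 ± 0.10 in tumours (adjusted p 0.0145), and the Rac exchange factor Tiam1 fell by 0.80 (SE 0.21, adjusted p 0.025).

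In normal colon, 5 of the 39 signalling genes were higher and 1 lower in DSS rats, beside 3.91% higher and 3.33% lower of all features. Tiam1 was 0.93 ± 0.21 higher (1.90-fold, adjusted p 0.0119), the kinase Src 0.53 ± 0.15 higher (1.45-fold, adjusted p 0.0331), and Vav3, an exchange factor recruited by Eph receptors, fell by 1.32 (SE 0.29, 2.5-fold lower, adjusted p 0.00871). Tiam1 and Src were higher in every normal colon of DSS rats than in any of untreated rats, as were 4.54% of all features. The 3 genes were named for their small p-values in this comparison, so such a separation adds no support. The Src call missed the threshold under 12 of 26 alternatives, that of Tiam1 under 2 and that of Vav3 under 3. In tumours 0 of the 39 passed between DSS and untreated rats, beside 0% of all features.

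Wnt target and crypt genes, the list that Ephb2 and Ephb3 are usually read with, passed the test in 1 direction only in tumours: 9 of 14 tested rose and 0 fell in DSS rats, beside 3.73% higher of all features, and 10 of 14 rose and 0 fell in untreated rats, beside 8.57%. Among the others, Sox9 was at -0.18 and Rnf43 at -0.02 in DSS rats and Smoc2 at -0.65 in untreated rats. The median difference was 0.79 and 0.59, against 0.02 and 0.00 over all features. The secreted Wnt inhibitor Wif1 rose by 2.39 ± 0.34 in DSS rats and 3.03 ± 0.34 in untreated rats (adjusted p 0.000214 and 1.17e-05), and the cyclin Ccnd1 by 0.98 ± 0.12 in DSS rats (adjusted p 5.8e-05). In the same comparisons Ephb2 differed by 0.23 in DSS rats and 0.25 in untreated rats, and Ephb3 by 0.66 and 0.06, of which only the Ephb3 value in DSS rats passed the test.

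The core motif of the TCF/LEF factors that act in Wnt signalling, CTTTGA read on both strands, was searched in the RefSeq promoters of GRCr8, from 250 bases before to 50 after each gene's start. All 8 members were in the table, and 1 of 8 held the motif, against 15.9% of 27457 promoters. That gene was Epha2, on chr5:158888379-158888678, plus strand, with the motif in capitals, its first base at position -239 from the gene's start. Its promoter is shown because it is the 1 match.
Epha2 promoter: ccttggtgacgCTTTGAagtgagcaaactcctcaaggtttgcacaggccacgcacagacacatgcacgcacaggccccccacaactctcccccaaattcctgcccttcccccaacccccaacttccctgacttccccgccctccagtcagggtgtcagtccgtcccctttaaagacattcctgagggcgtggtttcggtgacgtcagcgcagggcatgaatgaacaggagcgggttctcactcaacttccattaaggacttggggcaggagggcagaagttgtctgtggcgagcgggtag
No match in the other 7 says only that these letters are not in that window.

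For each member, the features of most similar pattern were those with the smallest root mean square difference in log2 over the 20 samples, each feature centred on its own mean. For Ephb2, whose SD over the samples was 0.22, they were Dcaf1 (0.10), Ampd2 (0.11) and E2f6 (0.11). For Ephb3 (SD 0.43) they were the pseudogene G3bp1-ps5 (0.25), Traf4 (0.26) and Pick1 (0.27), the last also on the signalling list. Ephb4 (SD 0.47) was nearest to Slc39a13 (0.23), Yeats2 (0.24) and Adh4 (0.26), and Ephb6 (SD 0.26) to Snx33 (0.14), Trappc10 (0.15) and Cyp2j10 (0.16). Epha2 (SD 0.39) was nearest to Hcls1 (0.18), Brap (0.20) and Src (0.20), the last again on the signalling list. Efnb1 (SD 0.42) was nearest to Tsc22d4 (0.17), Bet1l (0.17) and Plpp6 (0.19). For Efna1, the most variable member (SD 0.67), the nearest were the clock gene Nr1d1 (0.38), Naaladl1 (0.41) and Tmem140 (0.42), and these differences were the largest relative to the other members.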

How the data were processed

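The authors deposited the intensities of both channels per spot, and the file headers name Feature Extraction 9.1.3.1. The deposited log10 ratio per spot, which the authors' software made from processed signals, was only checked against those signals. The submitters' processing notes name Partek without a role. Mean signals were corrected with normexp (offset 50), and loess within arrays normalized the log2 ratios of Cy3 over Cy5. Tools were R 4.3.3, limma (3.58.1), statmod (1.5.0) and data.table (1.17.8). The offset shrinks ratios of dim probes. Control and non-uniform spots had weight 0. Probes well above background in Cy3 on at least 5 of 24 arrays were kept, and the brightest probe stood for a gene: 26653 features, 13385 with a symbol. Names came from accession, current symbol, gene ID or older name in the RefSeq table of GRCr8.

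Second arrays were averaged. limma fitted 4 group means to 20 samples (16 residual and 2.24 prior degrees of freedom), with two-sided tests and Benjamini-Hochberg adjustment, and 6 comparisons. The number of arrays limits the precision. Both tissues of a rat come from 1 animal, and their deviations from the group means correlated at 0.078 to 0.568, so rat was also fitted as a block. The fit was tested on simulated data. Members, lists and named genes (all members, other Eph genes and ephrins that passed, and up to 3 genes of smallest p per other list and comparison) were chosen with earlier results of these data known.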

Additional observations from a re-analysis of the deposited data

Results flagged for a closer look

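The normal colon of untreated rat 10 had the lowest Ephb2 value of its group, 0.05, against 0.34 to 0.45 in the other 4 rats, a gap of 0.721 of the group's range. The normal colon of DSS rat 9 had the highest Epha2 value of its group, 1.42, against 0.69 to 0.86 in the other 4, a gap of 0.768 of the range, and the same sample had the highest squamous marker mean (4.39). These were 2 of 28 groups of 5 values examined, and chance alone sets apart about 1 group in 20. Ephb4 changed differently between tumour and normal colon in DSS rats and in untreated rats, by 1.16 on the log2 scale (adjusted p 0.0305, limma's moderated test of the interaction). This call was lost under 11 of 27 alternatives.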

How the results depend on the processing

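Of the 10 called differences of members, 187 of 268 alternative values stayed past the threshold in the same direction, 80 kept the direction and missed it, and 1 reversed. Of the 32 not called, 15 of 852 alternative values passed. The reversal was Efnb1 between tumour and normal colon of DSS rats with median centring in place of loess (0.13). There were 36 called differences of other genes, picked by the rule given above and not all described here. Of their 961 values, 816 stayed past the threshold, 144 missed it, and the Acp1 interaction reversed with median centring (0.16). The cause of these reversals was not tested.

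Members called between tumour and normal colon of DSS rats (2) numbered 0 with Agilent's processed signals (median centred), median centring of the corrected signals, slide set 2 alone, the arrays of raised signal left out or the normal colon of DSS rats 1 and 5 averaged. They numbered 1 with a normexp offset of 10, no filter on dim probes, slide set 1 alone or slide as a block, and 0 to 2 without 1 rat. In untreated rats (3), they numbered 0 with median centring or in slide set 2 alone, 2 with processed signals, 4 with the stricter filter, the first array of each sample or rat as a replicate block, and 2 to 4 without 1 rat. Over all rats (2), they numbered 4 with rat as a random replicate block, 1 with processed signals, no filter, the arrays of raised signal left out or the probe of smallest F-test p, 0 with median centring or in slide set 2, and 1 to 3 without 1 rat. Between DSS and untreated normal colon (2), they numbered 1 with processed signals, no filter, rat as a random replicate block, slide set 1 alone, the arrays of raised signal left out or rats 1 and 5 averaged, 0 with median centring or in slide set 2, and 0 to 2 without 1 rat. For the interaction (1), they numbered 0 with median centring, within either slide set, without the arrays of raised signal or with rats 1 and 5 averaged, and 0 to 1 without 1 rat. Between tumours of DSS and untreated rats the count was 0 under every alternative run. Median centring also called fewer of all features: 665 against 2024 in DSS rats and 918 against 4795 in untreated rats. Slide set 2 alone called 111 and 2457 in these comparisons, and the fit without the arrays of raised signal 1507 and 4345. Processed signals called more, 2343 and 5417, and so did rat as a random block, 3420 and 6626.

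Rat as a fixed replicate block, the pairing of both tissues, called 2 members in DSS rats, 4 in untreated rats, 3 over all rats and 1 for the interaction. It also called more of all features, 3318, 6623, 7263 and 1500 in the same order, against 2024, 4795, 5549 and 666 in the main fit. The averaging of rats 1 and 5 and the fit with every probe as its own feature were chosen after seeing the data. With 5 rats a group, 2 to 3 per slide set and 1 probe for most genes, the data limit what can be called, and dim probes such as that of Efnb2 give no level.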
